A study of Mus musculus with 6 samples.

Results

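The TNF superfamily comprises ligands related to tumour necrosis factor and the receptors that bind them. Members were taken from the deposited gene table by symbol: genes named Tnfsf or Tnfrsf with a number and at most 1 letter, together with Tnf, Fas, Fasl, Ltb, Ltbr, Cd40 and Cd40lg, and without the genes of RANKL, RANK and osteoprotegerin. This gave 35 of 56691 genes in the table, 14 ligands and 21 receptors. The ligands are mostly trimeric proteins of the cell surface that can be shed, and the receptors signal through TRAF adaptors to NF-kB and JNK or, where they carry a death domain, also to caspase 8 and RIPK kinases. Many members are known from lymphocytes, where they give costimulation, while TNF itself comes largely from macrophages and is known to restrain osteoblast differentiation.

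RNA was sequenced from bone marrow stromal cells (BMSCs) of wild type mice, which are adherent marrow cells able to form bone, after 7 days of osteoblast differentiation. One set was given medium conditioned by Hepa 1-6, a mouse hepatoma cell line (CM, 3 libraries), and the other was given control medium (Control, 3 libraries). Both groups had alpha-MEM with 10% FBS, 1% penicillin and streptomycin, 50 µg/ml ascorbic acid and 1.08 mg/ml beta-glycerophosphate, changed every 2 days. The sources used here do not give the strain, age or sex of the mice, the proportion of conditioned medium, or whether control medium had been conditioned by other cells, so what is particular to hepatoma medium cannot be told apart from what any conditioned medium does. Nor do they tell if the 3 libraries of a group trace back to different mice or wells, and the p-values therefore cover the spread among these libraries alone, possibly a technical one.

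Libraries held 19075341 to 21329475 counts in CM and 18661629 to 20808829 in Control. Of 12153 genes with a mean of at least 1 FPKM (the count scaled by exonic length and library total), 45.9% were called at an adjusted p under 0.05 by edgeR's quasi-likelihood test, 23.0% as higher and 22.9% as lower in CM. Rises made up 50.1% of the calls, and 38.6% when FPKM were rescaled to TPM and tested with limma. Beside the labelled mesenchymal cells, macrophage markers were abundant. All 12 had a mean of at least 1 FPKM over the 6 libraries, and their summed level was 6272 to 6969 FPKM in CM and 8701 to 10075 FPKM in Control. Most of that sum was Lyz2, with a mean of 4571 FPKM in CM and 6683 FPKM in Control. Of the 12, 4 rose and 8 fell. Osteoblast markers summed to 2425 to 2472 FPKM in CM and 1636 to 1788 FPKM in Control, where osteopontin (Spp1) rose and the 8 other tested markers fell, and osteocalcin (Bglap) had 2 counts in each group. Neutrophil markers summed to 25.5 to 29.5 FPKM in CM and 5.79 to 9.08 FPKM in Control, mostly S100a8. Of the 3 neutrophil markers tested, S100a8 and Camp rose and S100a9 fell, with 0.867 ± 0.458 FPKM in CM and 1.95 ± 0.275 FPKM in Control. Camp averaged 0.283 FPKM in Control and passed the filter through CM, and S100a9 passed it through Control, so these calls only describe. Osteoclast markers summed to 128 to 131 FPKM in CM and 66.0 to 71.3 FPKM in Control, where Acp5, Mmp9 and Atp6v0d2 rose and Nfatc1 fell. Ctsk, with 30.5 FPKM in CM and 33.5 FPKM in Control, was not called (adjusted p = 0.10). Acp5 was the main part of the sum in CM, with 84.5 FPKM against 27.3 FPKM in Control. Mmp9 averaged 0.690 FPKM in Control and passed the filter through CM, so its call only describes. Marrow stroma markers summed to 375 to 392 FPKM in CM and 249 to 256 FPKM in Control, with 6 of 9 tested rising and 1 falling. The part of these cell types in the members' values was not tested. Of 10 T cell markers, Cd3e, Cd3g, Cd8a, Cd8b1 and Cd2 had no count in any library. Below, adjusted p-values are edgeR's with Benjamini-Hochberg adjustment over all genes tested, levels are FPKM as mean ± SD with n = 3 per group, and log2 fold changes are CM minus Control ± SE.

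Of the 35 members, 16 reached the mean of 1 FPKM. Among these 16, 7 rose and 2 fell in CM, against a background of 23.0% and 22.9% of all tested genes, and 7 were not called. Of the 16, 1 (Tnfsf14) rose at least 2-fold and none fell as much, where 3.10% of all tested genes rose and 2.18% fell by that size. The median log2 fold change of the 16 was 0.21, against -0.0028 over all genes tested. The FPKM of the groups did not overlap in 11 of the 16, higher in CM in 8 and lower in 3, where 53.2% of all tested genes did not overlap, 24.7% with CM higher and 28.4% with CM lower. Tnfsf14 reached the filter through its CM libraries alone, so it had to differ. The other 19 members lay below the filter, and 11 of them had enough counts for a second fit in which edgeR's filterByExpr chose the genes. In that fit 3 of the 11 (Tnfrsf9, Tnfrsf8 and Tnfsf13b) rose and none fell (at an unadjusted p under 0.05, 1 further member, Tnfsf4, was lower in CM), against a background of 12.9% rising and 13.4% falling among 3283 genes below 1 FPKM, and of 42.2% called in either direction over all 15221 genes of that fit. Tnfrsf8 entered that fit through its CM libraries, since its Control counts of 12, 9 and 6 would not have passed alone, so its rise is no support for the count.

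**Figure D1:**
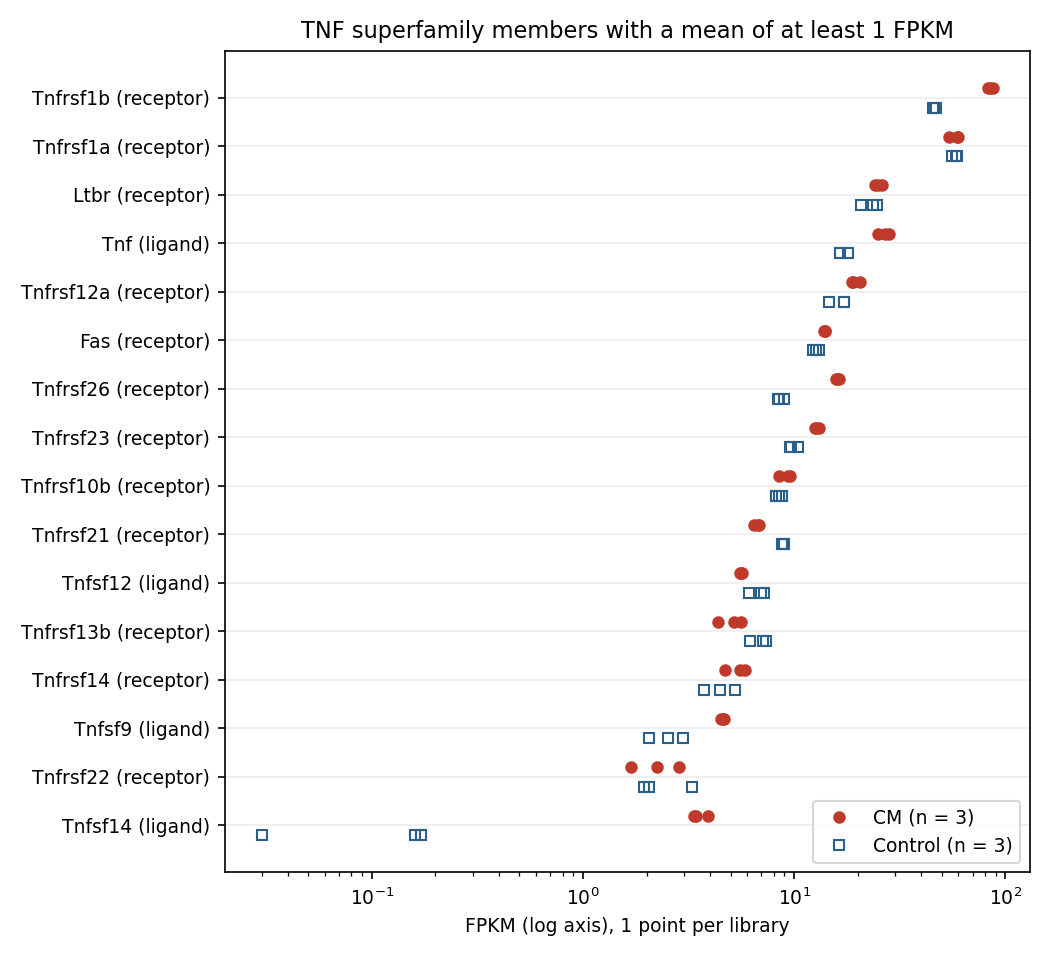
Level of the 16 members with a mean of at least 1 FPKM, on a log axis. Filled circles are the 3 CM libraries and open squares the 3 Control libraries. Tnfrsf1b and Tnfrsf1a are the most abundant members, and Tnfsf14 shows the widest gap, with CM at 3.35 to 3.91 FPKM and Control at 0.0300 to 0.170 FPKM.

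Promoters of 4 members that rose are shown first, chosen for the letters just before their starts, which differ in the elements known from inflammatory genes. Being chosen on their letters, they cannot show that members that rose hold such elements more often. They are the 250 bases before the annotated start from RefSeq (GRCm38.p6, whereas the deposited table uses GRCm39), written 5′ to 3′ on the gene's strand. Capitals mark matches, on either strand, to the NF-kappaB consensus, to the AP-1 element TGANTCA or to TATAAA. Tnf encodes the founding ligand, Tnfsf14 the ligand LIGHT, Tnfrsf9 the receptor 4-1BB and Tnfrsf8 the receptor CD30. For Tnfrsf9 the second of its 2 annotated starts is shown.
Tnf, chr17:35202008-35202257, minus strand: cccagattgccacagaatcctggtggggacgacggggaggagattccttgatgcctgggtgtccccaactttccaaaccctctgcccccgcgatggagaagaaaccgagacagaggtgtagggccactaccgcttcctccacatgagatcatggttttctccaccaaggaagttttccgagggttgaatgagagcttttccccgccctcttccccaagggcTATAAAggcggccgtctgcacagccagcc
Tnfsf14, chr17:57194182-57194431, minus strand: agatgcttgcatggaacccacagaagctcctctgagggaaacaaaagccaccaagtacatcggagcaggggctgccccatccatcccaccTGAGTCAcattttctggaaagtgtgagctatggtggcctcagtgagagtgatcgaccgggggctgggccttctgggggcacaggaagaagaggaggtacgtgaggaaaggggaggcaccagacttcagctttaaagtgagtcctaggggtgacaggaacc
Tnfrsf9, chr4:150927749-150927998, plus strand: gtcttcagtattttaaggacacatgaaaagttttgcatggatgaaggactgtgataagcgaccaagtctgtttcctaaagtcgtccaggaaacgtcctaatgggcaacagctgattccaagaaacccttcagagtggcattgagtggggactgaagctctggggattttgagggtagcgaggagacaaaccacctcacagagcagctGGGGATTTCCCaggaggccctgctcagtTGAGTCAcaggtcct
Tnfrsf8, chr4:145315165-145315414, minus strand: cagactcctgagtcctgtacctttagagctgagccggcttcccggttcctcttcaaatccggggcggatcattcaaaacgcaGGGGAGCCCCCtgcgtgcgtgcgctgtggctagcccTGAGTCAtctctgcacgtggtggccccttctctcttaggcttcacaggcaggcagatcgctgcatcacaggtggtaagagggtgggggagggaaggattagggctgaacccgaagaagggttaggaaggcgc

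An entry was found for 27 of the 35 members, with 31 starts in all. The 8 others are Cd40, Cd40lg, Tnfrsf10b, Tnfrsf22, Tnfrsf26, Tnfsf4, Tnfsf9 and Tnfsf12. Over all 32851 promoters of this length, 7.25% held the NF-kappaB consensus, 6.75% held TGANTCA and 12.4% held TATAAA. The shown start of Tnfrsf9 held the consensus in 2 overlapping frames between 43 and 33 bases before the start, and TGANTCA from 15 to 9 bases before it. The first start of Tnfrsf9 held none of the 3 motifs. Tnfrsf8 held the consensus in 2 overlapping frames between 168 and 158 bases before its start, and TGANTCA from 132 to 126 bases. Tnfsf14 held TGANTCA from 160 to 154 bases before its start. Tnf held TATAAA from 29 to 24 bases before its start and the consensus nowhere in this window. Among the other members the consensus was found in Ltb and in the second start of Tnfrsf25, neither of which had enough counts for a fit. TGANTCA was also found in Fas, in Tnfsf13 and in the second start of Tnfsf13b. TATAAA was found in Tnfsf18 from 34 to 29 bases before its start and in Tnfrsf17 from 114 to 109 bases. In Tnfrsf23 it was found on the opposite strand only, from 158 to 153 bases before the start. Tnfrsf1b and Tnfrsf12a, which also rose, held none of the 3 motifs, nor did the first start of Tnfsf13b. These matches describe the letters of the window and show no binding.

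Among the ligands, Tnf was the most abundant in both groups. It had 28.3, 24.9 and 27.0 FPKM in CM libraries 1 to 3, against 18.0, 16.6 and 16.6 FPKM in Control. All CM libraries lay above all Control libraries, and Tnf rose 1.59-fold (log2 fold change 0.67 ± 0.065, adjusted p = 2.8e-08). Tnf took 61.4% to 65.2% of the summed FPKM of the 14 ligands in CM and 58.8% to 61.6% in Control. Its gene spans 35418357 to 35420983 on the minus strand of chromosome 17 (GRCm39, as for all gene positions from the deposited table), 3.06 kb from Ltb, the gene of the membrane partner of lymphotoxin. Ltb had 1 count over the CM libraries and 10 over Control, 8 of them in Control library 3, a ratio of 0.0977 (95% counting interval 0.00225 to 0.687). Beside the rise of Tnf, which macrophages make, 8 of the 12 macrophage markers fell, among them Csf1r (log2 fold change -1.35 ± 0.042), and 4 rose, with Itgam highest (1.80 ± 0.043). Of those that fell, Cx3cr1 averaged 0.490 FPKM in CM and passed the filter through Control. In bulk RNA, a change in the number of cells of a type and a change in RNA per cell cannot be told apart, and the part of macrophages in these values was not tested.

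The receptors of TNF stood in opposite order in the groups. Tnfrsf1a encodes TNF receptor 1, which is made by most cells and carries a death domain. It had 54.3, 59.0 and 59.8 FPKM in CM, against 58.2, 59.1 and 56.1 FPKM in Control, and the groups overlapped (log2 fold change 0.014 ± 0.047, adjusted p = 0.84). Tnfrsf1b encodes TNF receptor 2, which lacks a death domain, recruits TRAF2 and is known mainly from leukocytes and endothelium. It had 85.0, 82.4 and 87.7 FPKM in CM, against 45.5, 46.4 and 47.1 FPKM in Control, with no overlap. Tnfrsf1b rose 1.86-fold (0.89 ± 0.043, adjusted p = 2.8e-13) and was first among the members in CM, while Tnfrsf1a was first in Control. The FPKM of Tnfrsf1b over that of Tnfrsf1a was 1.56, 1.40 and 1.46 in the CM libraries and 0.782, 0.785 and 0.838 in the Control libraries. Together they took 53.9% to 55.0% of the summed receptor FPKM in CM and 49.2% to 50.6% in Control. Endothelial markers, the other usual site of Tnfrsf1b, summed to 24.9 to 25.2 FPKM in CM and 21.8 to 22.8 FPKM in Control. Of the 4 tested, Emcn rose (0.40 ± 0.058), Kdr fell (-0.45 ± 0.11), and Pecam1 and Cdh5 were not called. The part of endothelial cells in the value of Tnfrsf1b was not tested. Tnfrsf1a lies on chromosome 6 at 125326325 to 125339447, plus strand, 35.5 kb from Ltbr. Tnfrsf1b lies on chromosome 4 at 144940033 to 144973440, minus strand.

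Tnfsf14 showed the largest change of the members that could be fitted. It encodes LIGHT, which binds the lymphotoxin beta receptor (Ltbr) and HVEM (Tnfrsf14). Tnfsf14 had 131, 118 and 154 counts in CM, against 6, 1 and 6 counts in Control, which is 3.41, 3.35 and 3.91 FPKM against 0.170, 0.0300 and 0.160 FPKM. The fitted rise was 29.7-fold (log2 fold change 4.89 ± 0.30, adjusted p = 1.6e-11), and it rests on 13 Control counts in all. The log2 value was 4.42 to 5.23 under the other count tests and when any single library was left out. On the log2(FPKM + 1) scale of limma, which understates the change of low genes, it was 2.02. Neither of its receptors was called. Ltbr had 24.2, 24.8 and 26.1 FPKM in CM, against 24.6, 23.5 and 20.8 FPKM in Control (0.14 ± 0.060, adjusted p = 0.061). Tnfrsf14 had 4.71, 5.54 and 5.84 FPKM in CM, against 4.47, 3.76 and 5.25 FPKM in Control (0.27 ± 0.14, adjusted p = 0.13). The groups overlapped for both receptors. Ltbr passed the threshold without Control library 1 (0.19, adjusted p = 0.022), and Tnfrsf14 without Control library 3 (0.40, adjusted p = 0.030). Tnfsf14 lies on chromosome 17 at 57496492 to 57501177, minus strand, 81.7 kb from Tnfsf9.

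Tnfsf9 and Tnfrsf9, the ligand and receptor of the 4-1BB system, both rose. 4-1BB is known as a costimulatory receptor of activated T cells and is also made by other cells. Tnfsf9 had 4.62, 4.67 and 4.51 FPKM in CM, against 2.53, 2.97 and 2.05 FPKM in Control, and rose 1.85-fold (0.88 ± 0.16, adjusted p = 1.5e-04). Tnfrsf9 lay just under the filter, with a mean of 0.948 FPKM over the 6 libraries. It had 93, 88 and 89 counts in CM, against 11, 22 and 12 counts in Control, and rose 5.89-fold in the filterByExpr fit (2.56 ± 0.25, adjusted p = 4.1e-09). Neither gene's groups overlapped. Tnfrsf9 lies on chromosome 4 at 150999019 to 151030559, plus strand. It shares 28781 bases with Camta1 on the other strand, which had 86 to 110 counts in CM and 108 to 136 in Control. No source used here states if the counting was strand-aware, and reads from such overlapping genes cannot be told apart. Tnfsf9 likewise overlaps Gm11110 over 639 bases on the other strand. The summed level of the T cell markers was 1.57 to 2.28 FPKM in CM and 2.16 to 2.95 FPKM in Control, made up largely of Cd4 and Trac. That of the NK cell markers was 4.46 to 7.05 FPKM in CM and 0.20 to 0.34 FPKM in Control, nearly all from the granzyme gene Gzmb, with Ncr1 at 0 in every library. The part of other cell types in the values of Tnfsf9 and Tnfrsf9 was not tested.

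**Figure D2:**
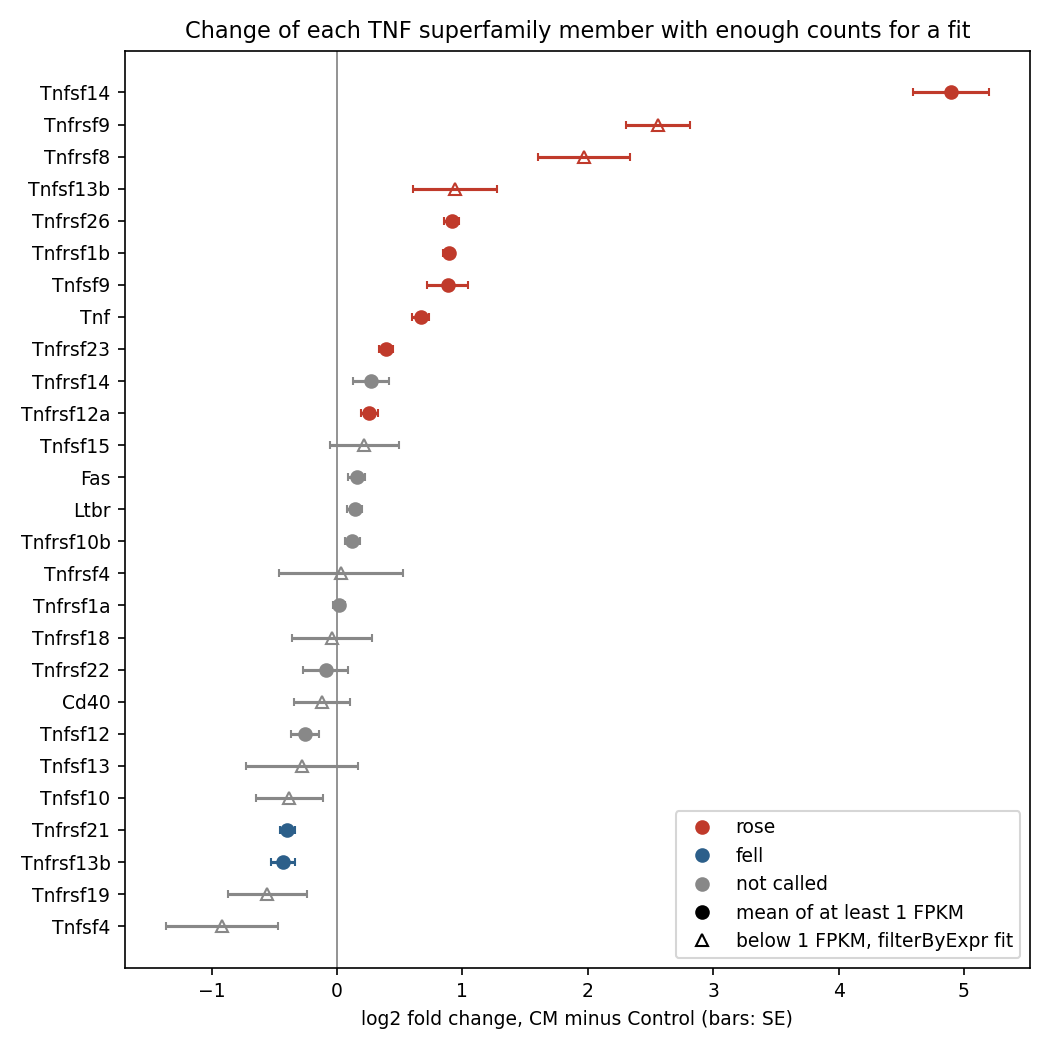
Log2 fold change, CM minus Control, with its SE for the 27 members that could be fitted. Circles are members with a mean of at least 1 FPKM and triangles those below it, taken from the filterByExpr fit; colour gives the call. Tnfsf14, Tnfrsf9 and Tnfrsf8 stand at 4.89, 2.56 and 1.97, and the 2 falls that were called are Tnfrsf13b at -0.43 and Tnfrsf21 at -0.39.

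Tnfrsf8, the gene of CD30, a receptor of activated lymphocytes and Hodgkin lymphoma cells, was rare but higher in CM. It had 45, 26 and 38 counts in CM, against 12, 9 and 6 counts in Control, and the filterByExpr fit, which it entered through CM, gave a 3.92-fold rise (1.97 ± 0.37, adjusted p = 7.9e-05). Its groups did not overlap. It lies on chromosome 4 at 144993707 to 145041734, minus strand, 20.3 kb from Tnfrsf1b, on the same strand. Its ligand Tnfsf8 had 10 counts over the CM libraries and 6 over Control, a ratio of 1.63 (95% counting interval 0.536 to 5.45). A difference in the ligand was not detectable at this depth.

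Among the members, the genes of TRAIL receptors are Tnfrsf10b on chromosome 14 and, in a cluster on chromosome 7, Tnfrsf22 and Tnfrsf23. Tnfrsf10b, which carries a death domain, had 9.35, 9.51 and 8.51 FPKM in CM, against 8.19, 8.72 and 8.49 FPKM in Control (0.12 ± 0.059, adjusted p = 0.098). Its groups overlapped, and it passed the threshold without CM library 3 (0.17, adjusted p = 0.045). On chromosome 7, Tnfrsf22 and Tnfrsf23 encode receptors that bind TRAIL in mouse without a death domain, and Tnfrsf26 is a related receptor gene. The 3 genes lie in a row on the minus strand, Tnfrsf26 at 143161396 to 143182459, Tnfrsf22 at 143188543 to 143203398 and Tnfrsf23 at 143219546 to 143239609. Tnfrsf26 had 16.0, 15.8 and 16.3 FPKM in CM, against 8.93, 8.51 and 8.38 FPKM in Control, with no overlap. It rose 1.89-fold (0.91 ± 0.058, adjusted p = 2.9e-11). Tnfrsf23 had 12.5, 13.1 and 12.7 FPKM in CM, against 10.4, 9.67 and 9.61 FPKM in Control, again with no overlap. It rose 1.31-fold (0.39 ± 0.056, adjusted p = 7.7e-06). Tnfrsf22, between them, had 2.85, 1.69 and 2.23 FPKM in CM, against 2.06, 1.94 and 3.29 FPKM in Control. Its groups overlapped, and its estimate was -0.090 ± 0.18 (adjusted p = 0.72), or 0.20 without Control library 3, the highest. Annotated transcripts of Tnfrsf22 and Tnfrsf23 (GENCODE M21) share 377 stretches of 100 bases, 8.97% of those of Tnfrsf22 and 9.31% of those of Tnfrsf23, so reads could be split between these paralogs and the values of both are uncertain. Tnfrsf26 shared none with either. The antisense gene E230032D23Rik overlaps all 3, with 29 to 38 counts in CM and 14 to 18 in Control. The ligand gene Tnfsf10, which encodes TRAIL, was low, with 0.250 to 0.290 FPKM in CM and 0.270 to 0.420 FPKM in Control (-0.38 ± 0.27 in the filterByExpr fit, adjusted p = 0.27).

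**Figure D3:**
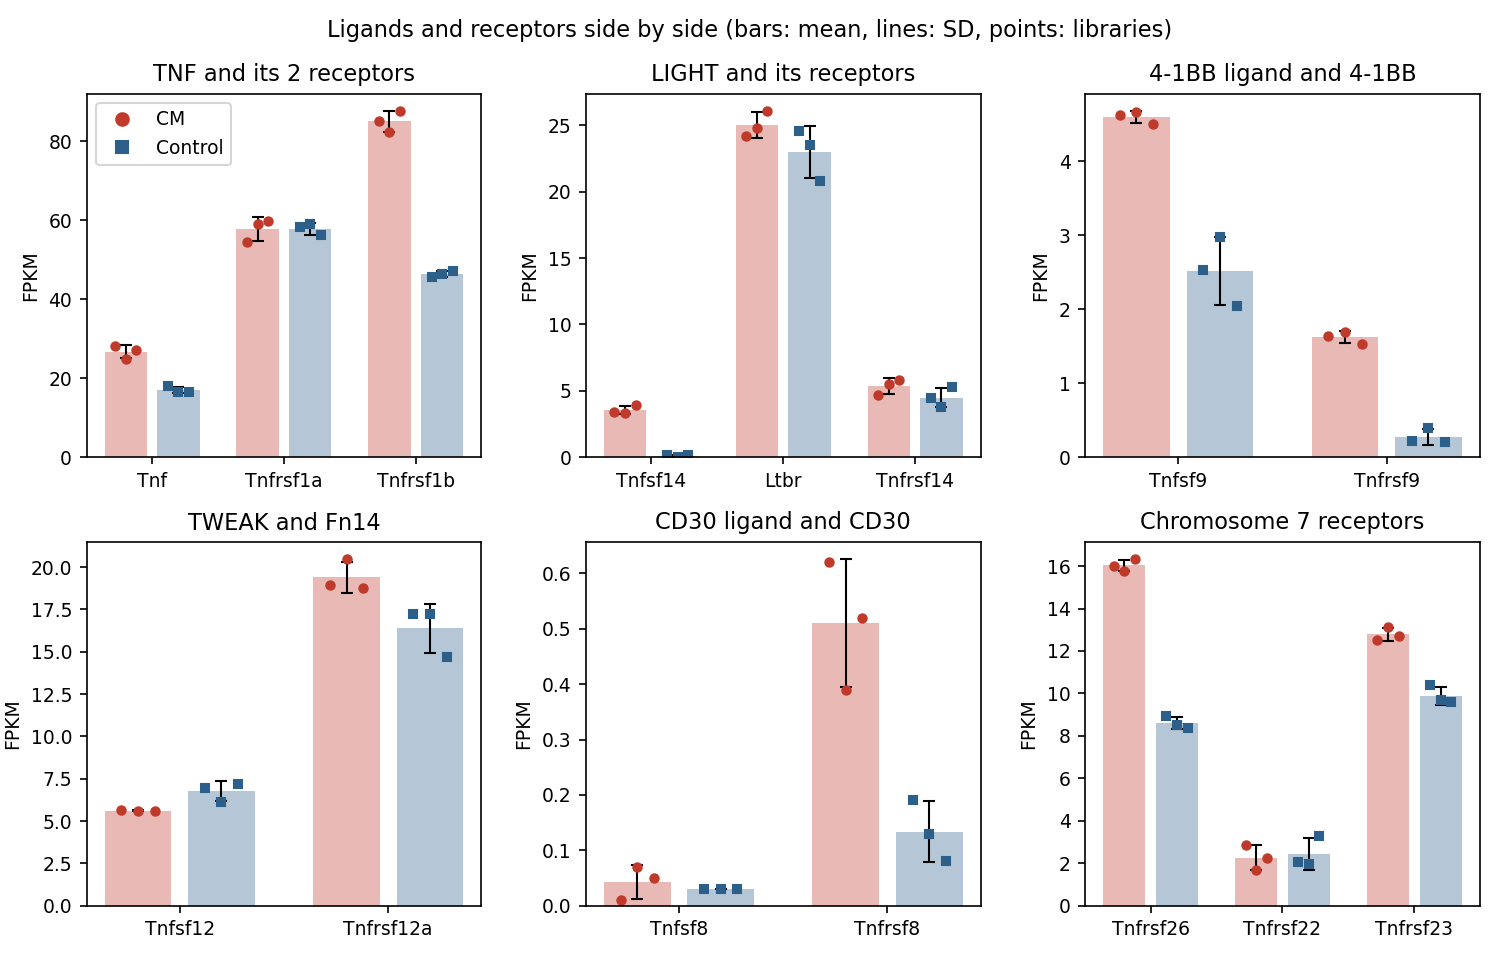
FPKM of ligands beside their receptors, and of the 3 chromosome 7 receptors. Bars are group means, lines the SD and points the libraries, with CM left of Control in each pair. Tnfrsf1b exceeds Tnfrsf1a in CM, where it averaged 85.0 FPKM, and stays below it in Control, where it averaged 46.3 FPKM.

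In the TWEAK system the receptor rose and the ligand did not. Tnfrsf12a encodes Fn14, the TWEAK receptor, which is known to be induced in injured tissue. It had 18.9, 20.5 and 18.8 FPKM in CM, against 17.3, 17.2 and 14.7 FPKM in Control, and rose 1.20-fold (0.26 ± 0.069, adjusted p = 0.0043). The ligand gene Tnfsf12 had 5.64, 5.57 and 5.60 FPKM in CM, against 6.97, 6.10 and 7.20 FPKM in Control. Its groups did not overlap, but it was not called (-0.25 ± 0.11, adjusted p = 0.071). It was called lower with limma on log2(FPKM + 1), with an adjusted p of 0.018, and without Control library 2, with 0.040. The FPKM of Tnfsf12 over that of Tnfrsf12a averaged 0.290 ± 0.0150 in CM and 0.416 ± 0.0685 in Control. Tnfsf12 lies on chromosome 11, 465 bases from Tnfsf13, and the readthrough gene Tnfsfm13 spans both on the same strand, so their values are uncertain. Tnfsfm13 had 20 to 52 counts in CM and 49 to 63 in Control.

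Of the members that are death receptor genes outside the TNF and TRAIL systems, only Tnfrsf21 was called, and Tnfrsf25 had too few counts for a fit. Fas, whose receptor triggers apoptosis when bound by Fas ligand, had 14.1, 13.9 and 14.0 FPKM in CM, against 12.2, 13.1 and 12.7 FPKM in Control. Its groups did not overlap, and the estimate was 0.16 ± 0.066 (adjusted p = 0.057). It was called with limma on log2(FPKM + 1), with an adjusted p of 0.025. Tnfrsf21, which encodes death receptor 6, had 6.76, 6.43 and 6.78 FPKM in CM, against 8.93, 8.87 and 8.75 FPKM in Control. It fell 1.31-fold (-0.39 ± 0.062, adjusted p = 2.2e-05), with no overlap. Tnfrsf25, the gene of death receptor 3, had 7, 0 and 3 counts in CM, against 12, 10 and 8 counts in Control, a ratio of 0.326 (95% counting interval 0.142 to 0.684). Its ligand gene Tnfsf15, which encodes TL1A, had 0.270 to 0.360 FPKM in CM and 0.190 to 0.320 FPKM in Control (0.22 ± 0.27, adjusted p = 0.56). Fasl had 2 counts over the CM libraries, both in library 2, and 0 of 59802988 Control counts, which allows up to 0.0259 FPKM.

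Among the BAFF and APRIL genes, which serve B cells, 1 receptor was well measured. Tnfrsf13b encodes TACI, which binds both ligands. It had 5.59, 4.36 and 5.17 FPKM in CM, against 7.10, 7.34 and 6.20 FPKM in Control, and fell 1.35-fold (-0.43 ± 0.097, adjusted p = 0.0011) with no overlap. Markers of B cells and plasma cells beside it did not move one way. Cd79a had 0 to 3 counts in each library, and Cd79b fell (-1.64 ± 0.24), with 16 to 27 counts in CM and 62 to 80 in Control. Cd79b averaged 0.790 FPKM in CM and passed the filter through Control, so its call only describes. Cd22 had 2.00 ± 0.118 FPKM in CM and 2.07 ± 0.207 FPKM in Control and was not called (adjusted p = 0.84). Sdc1, which other cells also make, had 56.5 ± 1.52 FPKM in CM and 39.8 ± 3.18 FPKM in Control and rose (0.52 ± 0.051). With Sdc1 as its main part, the list summed to 58.5 to 61.1 FPKM in CM and 40.8 to 46.4 FPKM in Control, and its part in the value of Tnfrsf13b was not tested. The other receptors were at or near 0. Tnfrsf13c, the BAFF receptor gene, had no count in CM, which allows up to 0.0239 FPKM there, and 1 count in Control, and Tnfrsf17, the BCMA gene, had none, which allows up to 0.0601 FPKM in CM and 0.0616 FPKM in Control. The BAFF gene Tnfsf13b had 23, 29 and 36 counts in CM, against 14, 18 and 13 counts in Control. It rose 1.92-fold in the filterByExpr fit (0.94 ± 0.33, adjusted p = 0.024), with no overlap. That call was lost without CM library 2 (adjusted p = 0.066), CM library 3 (0.11) or Control library 3 (0.077). The APRIL gene Tnfsf13 had 9 to 13 counts in CM and 6 to 21 in Control (-0.28 ± 0.45, adjusted p = 0.66).

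The remaining members, mostly costimulatory, were low, and those with enough counts for a fit were not called. Cd40, a receptor of B cells and macrophages, had 0.540 to 0.850 FPKM in CM and 0.730 to 0.870 FPKM in Control (-0.12 ± 0.22 in the filterByExpr fit, adjusted p = 0.70), and the gene of its ligand, Cd40lg, had no count in any library, which allows up to 0.0392 FPKM in CM and 0.0401 FPKM in Control. Dendritic cell markers, which bear on Cd40, summed to 0.54 to 0.80 FPKM in CM and 0.96 to 1.10 FPKM in Control. For OX40 (Tnfrsf4) the estimate was 0.030 ± 0.50, with 4 to 14 counts in CM and 7 to 11 in Control. Its ligand gene Tnfsf4 had 9, 16 and 6 counts in CM, against 29, 14 and 15 counts in Control (-0.91 ± 0.45, adjusted p = 0.10). Without CM library 2 that estimate was -1.42 and passed the threshold (adjusted p = 0.036). GITR (Tnfrsf18) had 19 to 28 counts in CM and 20 to 24 in Control, and its ligand gene Tnfsf18 had 20 counts over the CM libraries and 12 over Control, a ratio of 1.63 (95% counting interval 0.758 to 3.65). Tnfrsf18 lies within the bounds of Gm16008 on the other strand, which had 27 to 46 counts in CM and 21 to 44 in Control. Tnfrsf19, which encodes TROY, a receptor known from mesenchymal and neural cells, had 0.120 to 0.340 FPKM in CM and 0.310 to 0.450 FPKM in Control (-0.55 ± 0.32, adjusted p = 0.17).

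Of the 16 tested members, Tnfrsf12a and Tnfsf9 held the same rank of level in both groups, at 5 and 14 among the 35. In CM the order ran from Tnfrsf1b (85.0 ± 2.62 FPKM) through Tnfrsf1a (57.7 ± 2.96), Tnf (26.7 ± 1.70), Ltbr (25.0 ± 0.971), Tnfrsf12a (19.4 ± 0.934) and Tnfrsf26 (16.0 ± 0.276) to Fas (14.0 ± 0.0709). In Control the order ran from Tnfrsf1a (57.8 ± 1.49 FPKM) through Tnfrsf1b (46.3 ± 0.771), Ltbr (23.0 ± 1.93), Tnf (17.0 ± 0.800), Tnfrsf12a (16.4 ± 1.46), Fas (12.7 ± 0.406) and Tnfrsf23 (9.89 ± 0.434). The libraries of Tnf and Ltbr overlapped in CM, and those of Tnf and Tnfrsf12a overlapped in Control. Tnfrsf26 stood at rank 6 in CM and 9 in Control. Tnfsf14 stood at rank 15 in CM and 27 in Control. The summed FPKM of the 21 receptors was 258 to 268 in CM and 204 to 211 in Control, and that of the 14 ligands was 40.5 to 43.3 in CM and 26.9 to 29.9 in Control.

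Downstream of the receptors, genes were read from lists of known pathway members, against the 23.0% of all tested genes that rose and the 22.9% that fell. The counts of the adaptors, the brakes and the death arm lay near those shares. Of 24 adaptors and ligases, 7 rose and 5 fell (median log2 fold change -0.079). With limma 5 rose and 7 fell on the TPM scale, and 5 rose and 4 fell on log2(FPKM + 1). Traf1, an adaptor known as an NF-kB target that joins the complexes of TNF receptor 2, 4-1BB and CD30, had 3.21 ± 0.241 FPKM in CM and 0.293 ± 0.0321 FPKM in Control (3.47 ± 0.12). It passed the filter on FPKM through CM alone, so it had to differ, and its call is a description. Traf3ip2, the IL-17 receptor adaptor Act1, rose by 0.97 ± 0.10, Traf4 by 0.57 ± 0.085 and Birc3, which encodes the ligase cIAP2, by 0.45 ± 0.054. Traf2, the adaptor that TNF receptor 2 binds directly, had 3.22 ± 0.0700 FPKM in CM and 3.32 ± 0.361 FPKM in Control (adjusted p = 0.84). Of 14 genes that brake the signal, 3 rose and 4 fell (median 0.020), and under the alternatives 3 rose and 3 to 5 fell. Tnfaip3, which encodes the deubiquitinase A20, had 23.3 ± 0.820 FPKM in CM and 6.18 ± 0.242 FPKM in Control (1.93 ± 0.050, adjusted p = 8.6e-18). The inhibitor gene Nfkbia rose by 0.91 ± 0.048 and Tnip1, whose product binds A20, by 0.49 ± 0.049, while Tnip3 fell (-0.55 ± 0.072).

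Of 13 genes of the death arm, 4 rose and 3 fell (median 0.014), where 23.0% of all tested genes rose and 22.9% fell. The necroptosis kinase gene Ripk3 had 28.1 ± 1.58 FPKM in CM and 13.8 ± 1.25 FPKM in Control (1.04 ± 0.066, adjusted p = 3.1e-11), and its substrate gene Mlkl had 26.7 ± 1.69 FPKM in CM and 13.8 ± 0.583 FPKM in Control (0.96 ± 0.062). Cflar, which encodes the caspase 8 inhibitor cFLIP, rose by 0.58 ± 0.052, and the adaptor gene Fadd fell (-0.45 ± 0.12). Of 11 tested genes of shedding and processing, 4 rose and 4 fell (median 0.041), or 5 fell with TPM. Adam8, a metalloproteinase gene of myeloid cells, had 362 ± 5.46 FPKM in CM and 172 ± 4.47 FPKM in Control (1.09 ± 0.038). Rhbdf2, whose product carries the TNF sheddase ADAM17 to the cell surface, rose by 0.67 ± 0.065 and the convertase gene Furin by 0.49 ± 0.043. Rhbdf1, the relative of Rhbdf2, fell (-0.39 ± 0.088), as did Adam17 itself, which had 28.8 ± 0.973 FPKM in CM and 32.6 ± 0.741 FPKM in Control (-0.16 ± 0.044, adjusted p = 0.0048).

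Of 23 tested genes that TNF is known to induce, 15 rose and 4 fell, with a median of 0.76 against -0.0028 over all genes tested, of which 23.0% rose and 22.9% fell. Lcn2, Cxcl1, Il6, Il1b and Sele averaged under 1 FPKM in Control and passed the filter through CM, so the count and the median describe the list and support nothing. The largest rises were Lcn2 (8.49 ± 0.070), the chemokine genes Cxcl2 (4.81 ± 0.087) and Cxcl1 (4.75 ± 0.12), and Il6 (4.37 ± 0.13). Against the direction of most of the list, Vcam1, an adhesion molecule gene, fell (-1.02 ± 0.046), as did Gadd45b (-0.43 ± 0.081), Tnfaip2 (-0.38 ± 0.048) and Relb (-0.28 ± 0.099). Other stimuli induce these genes too. Of the superfamily genes outside the symbols used here, 7 of 12 were tested, 3 rose and 1 fell. Tnfsf11, which encodes RANKL, rose by 1.57 ± 0.13, Tnfrsf11a, which encodes its receptor RANK, fell (-0.85 ± 0.058), Eda rose by 0.37 ± 0.14 and Eda2r by 0.21 ± 0.050.

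**Figure D4:**
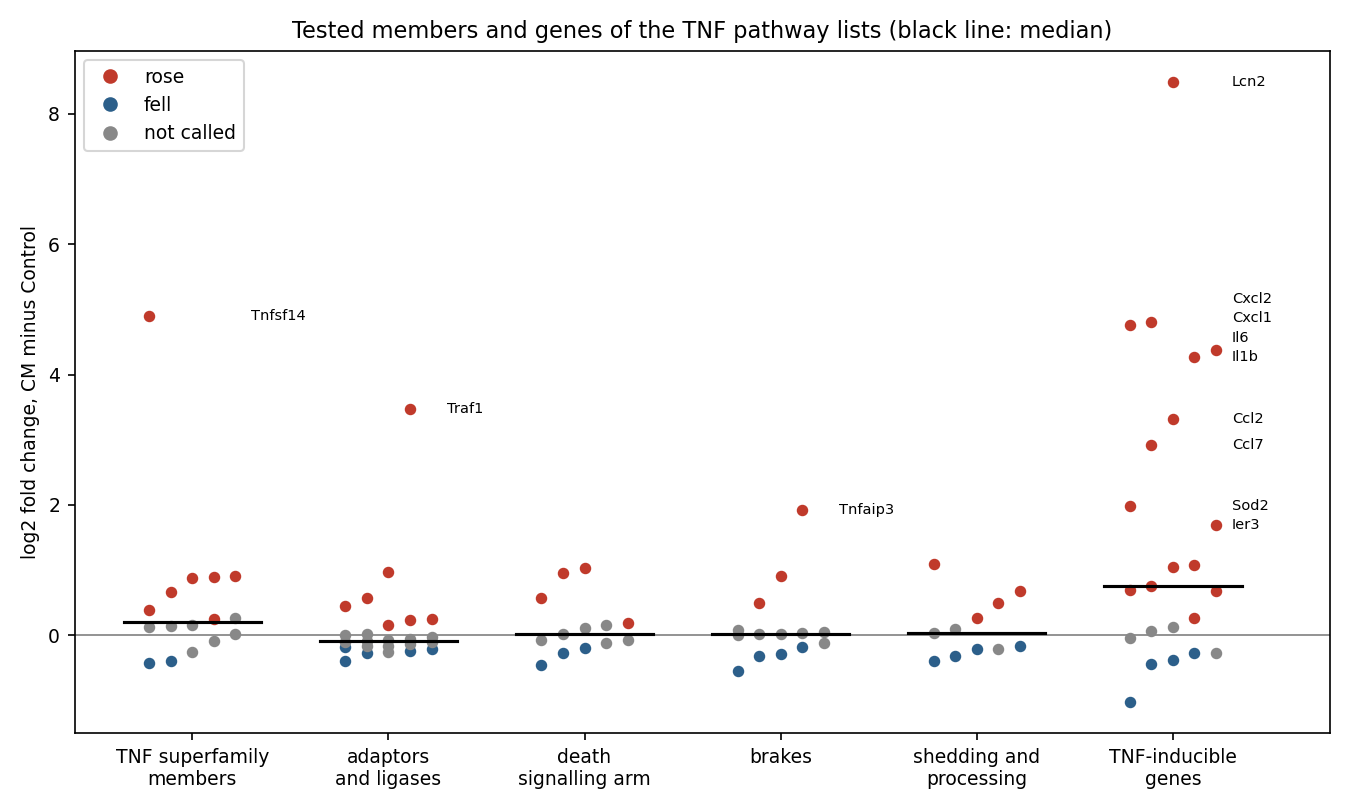
Log2 fold change, CM minus Control, of the 16 tested members and of the tested genes of 5 pathway lists. Each point is a gene, colour gives the call, the black line is the median and genes above 1.5 are named. Medians lie at 0.21 for the members, at -0.079 to 0.041 for adaptors, death arm, brakes and shedding, and at 0.76 for the TNF-inducible genes.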

How the data were processed

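The members and gene lists were chosen with earlier results of these data known. The authors deposited 1 table of 56691 genes; per the file headers it holds a raw read count and an FPKM value per gene and sample, the exonic length and the position. FPKM equalled count over exonic length and total count within 0.006 FPKM in 100% of values. Build GRCm39 and the tools HTSeq 0.6.1, HISAT2 2.0.1, DESeq2 and cutadapt 1.9.1 are listed, without roles, per the submitters' processing notes. Poly(A) RNA was read as paired ends, per the labels' protocols. Deposited counts were tested with edgeR 4.0.16 (R 4.3.3; TMM factors, group as the only term, quasi-likelihood) for 12153 genes with a mean of at least 1 FPKM, and for 15221 genes chosen by filterByExpr. SE was taken as the log2 fold change without shrinkage divided by √F. DESeq2 1.42.0 and limma 3.58.1, on log2(FPKM + 1), log2(FPKM + 0.1) and log2(TPM + 1), were alternatives. Called means an adjusted p under 0.05. The test was run on simulated data with known changes, 50 genes per fold. It recovered 68% of the 1.3-fold, 84% of the 1.5-fold, 94% of the 2-fold and 96% of the 4-fold changes. Of its calls 10% were false, more than the threshold of 0.05 allows. Far fewer genes were changed there than were called in the data, so these shares may not carry over. Ratios of few counts are scaled by group totals with exact 95% binomial intervals, and the limit for 0 is 3 counts over the group; both cover counting error only. All members were accounted for; from each pathway list up to 4 called genes with the largest change were named, and Traf2, Adam17, and the genes that fell among the TNF-inducible list, were added after their values were seen.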

Additional observations from a re-analysis of the deposited data

How the results depend on the processing

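All 9 called members kept their direction and stayed called under each of the 14 alternatives, and with CM library 1 to 3 or Control library 1 to 3 left out 7 to 8 members rose, 2 to 3 fell, and 4769 to 5873 genes were called over the whole table. Among the 9, Tnfsf14 reached the filter through its CM libraries alone, so its staying called is no support. With filterByExpr or no filter 10 members rose, among them Tnfsf14 and Tnfrsf8, which entered the filterByExpr fit through CM. The replicate numbers were not shown to pair the samples: deviations of same-numbered libraries correlated at -0.0056, 0.019 and 0.038. With the replicate number as a block 7 members rose, 2 fell and 5662 genes were called. Signs turned round only for members that were not called. For Tnfrsf1a the log2 fold change was -0.0027 and -0.0028 with limma on log2(FPKM + 1) and log2(FPKM + 0.1) and -0.042 with TPM. With single libraries left out it ran from -0.014 to 0.056 for Tnfrsf1a and from -0.29 to 0.20 for Tnfrsf22, and in the filterByExpr fit from -0.64 to 0.099 for Tnfsf13, from -0.25 to 0.049 for Cd40, from -0.20 to 0.073 for Tnfrsf18 and from -0.29 to 0.41 for Tnfrsf4. The cause was not tested. Leaving out 1 library brought Ltbr, Tnfrsf10b, Tnfrsf14, Tnfsf12 and Tnfsf4 past the threshold in 1 case each and took Tnfsf13b under it in 3. Depth limits Tnfsf8, Tnfsf18, Tnfrsf25, Ltb, Fasl, Tnfrsf4, Tnfrsf13c, Tnfrsf17 and Cd40lg, for which counts over each group were 30 or fewer. It also limits Tnfrsf8 and Tnfsf14, for which the Control counts were that few.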
